A study of Triticum aestivum with 24 samples.

Results

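The drought response of WL711, a bread wheat (Triticum aestivum) cultivar that the sample labels call drought susceptible, was read from 6 arrays chosen by their titles. They are 3 arrays of droughted plants and 3 of irrigated plants, out of 24 arrays in the series. The other 18 hold the same contrast in 3 further materials. These are C306, the parent labelled drought tolerant, and a susceptible and a tolerant bulk of recombinant inbred lines, with 10 lines pooled in each bulk. All 24 arrays measured total RNA of flag leaves sampled at the reproductive stage, and each of the 8 groups has 3 arrays described in the design text as biological replications. All plants of a group are 1 cultivar or 1 pool, so the WL711 groups stand for a single genotype, and the sources used here give no severity, duration or water status for the drought. In total RNA of a whole leaf, fewer cells of a type and less RNA per cell cannot be told apart.

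The flag leaf is the uppermost leaf of the wheat shoot and supplies much of the carbon that fills the grain. When leaf cells lose water, abscisic acid signalling raises transcripts of late embryogenesis abundant (LEA) proteins and dehydrins, hydrophilic proteins that protect membranes and enzymes, while stomata close and the carbon fixation machinery is commonly turned down. Stored fructans are broken down by fructan exohydrolases, which release fructose for osmotic adjustment or for export to the grain.

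The leaf label was first set against marker genes. The 37 probe sets of the photosynthesis genes summed to signals of 283200 to 352100 on the irrigated WL711 arrays and 281400 to 342200 on the drought arrays. The 12 probe sets of 7 grain storage and inhibitor genes summed to 401.1 to 455.8 under irrigation and 473.8 to 711.5 under drought, and these groups did not overlap. Only 3 of those 7 grain genes were bright enough to be tested, and none of the 3 passed the test. ALP, an avenin-like storage protein outside that list, was called higher (0.49 on the log2 scale, limma, adjusted p = 0.0357). Its call ended without the array labelled drought 1. The part of the higher grain signal in the results was not tested. The hybridization spike-in controls read 11.6 to 11.8 on the log2 scale on the irrigated WL711 arrays and 12 to 12.8 on the drought arrays, again with no overlap between the groups; the part of this technical difference in the results was not tested. The log2 ratio of the 3′ to the 5′ GAPDH control ran from -1.99 to 0.72 under irrigation and from -0.34 to 2.00 under drought, and the groups overlapped.

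One WL711 drought array stood apart before any gene was considered. Over the 36707 probe sets tested, the array labelled drought 1 correlated at 0.940 to 0.944 with the 3 irrigated WL711 arrays and at 0.893 to 0.908 with the other two drought arrays. Drought arrays 2 and 3 correlated with each other at 0.955, and the irrigated arrays with each other at 0.963 to 0.966. The median within-group SD was 0.435 on the log2 scale in the drought group and 0.251 in the irrigated group.

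The array labelled drought 1 also carried values of the other parent at many probe sets. At 205 probe sets the 11 other parental arrays separated C306 from WL711 by a gap of more than 2 on the log2 scale whatever the water supply, and the array labelled drought 1 was not used to choose them. At 123 of these (60%) it lay near the WL711 mean, within 25% of the distance from the WL711 mean to the C306 mean or on the far side. At 73 (35.6%) it lay past 75% of that distance, near C306, and at 9 (4.4%) in between. The 73 held 37 of the 109 probe sets that were higher in C306 and 36 of the 96 that were lower there.

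No other array of the parents behaved in that way. Each of the other 5 WL711 arrays, read at markers chosen without it, was near C306 at 0 probe sets and near WL711 at 88.5% to 98.1%. Each C306 array was near C306 at 86.6% to 97.1% and near WL711 at no more than 1 probe set. The pooled bulks, whose lines descend from both parents, lay between the parents at 41% to 54.6% of the markers, against 4.4% for the array labelled drought 1. The cause of its values was not tested, and the results below that rest on it are given with and without it.

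**Figure D1:**
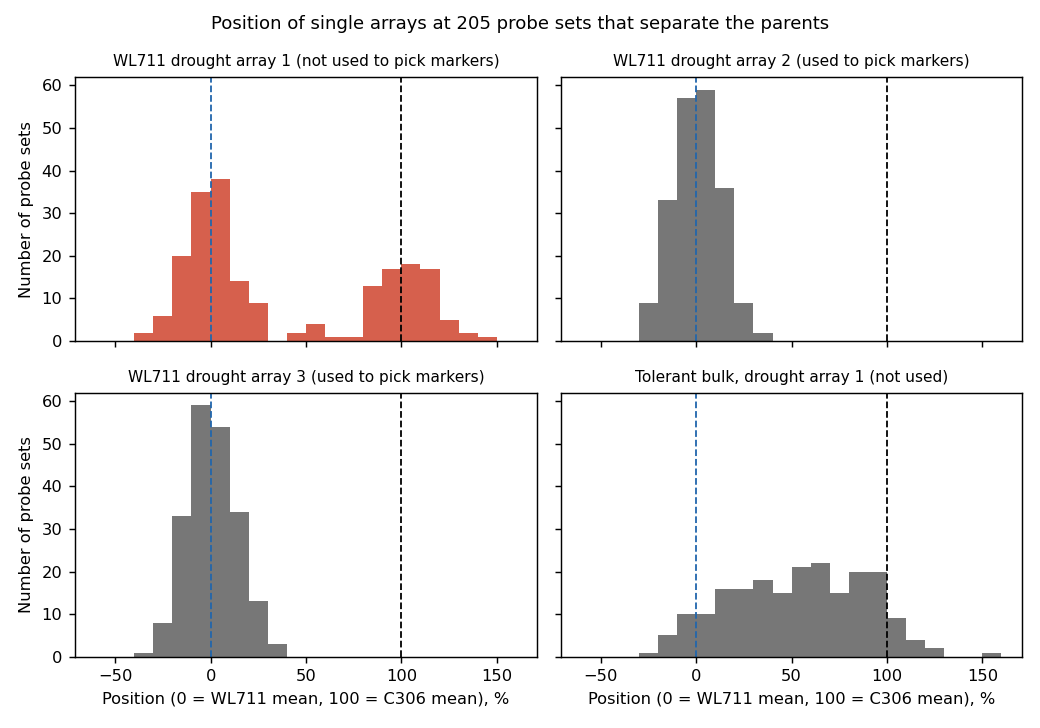
Number of probe sets (vertical axis) by the position of 1 array between the mean of WL711 (0%) and the mean of C306 (100%) at the 205 probe sets that separate the parents (horizontal axis, percent). The array labelled drought 1 forms a peak at each parent, with 123 probe sets near WL711 and 73 near C306; drought arrays 2 and 3 peak at WL711, partly because they helped to choose the markers, and the tolerant bulk array spreads across the range.

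A pair of named genes shows the pattern. LOC543418, a gene with no function stated in the annotation used, had signals of 33.0, 6.9 and 31.8 on irrigated arrays 1, 2 and 3 and of 3412, 73.1 and 32.9 on drought arrays 1, 2 and 3. Its C306 signals ran from 4459 to 5039 under irrigation and from 7459 to 14280 under drought. The array labelled drought 1 was therefore the only WL711 array at a C306-like level for this gene. LOC543111 read 120, 39.4 and 220 under irrigation and 3664, 207 and 208 under drought, against 3216 to 4570 over the 6 C306 arrays. By contrast LOC100037571, at 879 to 3086 in C306, read 13.4 on the array labelled drought 1 and 22.6 to 84.8 on the other WL711 arrays. That gene thus kept a WL711-like level on the array in question.

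Against the irrigated WL711 arrays, 7099 of the 36707 probe sets differed under drought (19.3%; limma, adjusted p under 0.05), of which 3792 (10.3%) were higher and 3307 (9.01%) lower. Without the array labelled drought 1 the number was 11407 (31.1%), with 5549 (15.1%) higher and 5858 (16%) lower. Of the 7099, 6896 (97.1%) were also called without it in the same direction, and 0 were called in opposite directions. A fit on the 6 WL711 arrays alone, whose spread comes from these arrays only, called 717 (1.95%), 457 (1.24%) higher and 260 (0.708%) lower. Of those 717, 710 were among the 7099, in the same direction.

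The split between higher and lower depended on how the arrays were put on a common scale. With each array centred on its median over all probe sets, dim ones included, 2131 were higher and 3875 lower, and without the array labelled drought 1 the numbers were 3187 and 7147. The median difference over all tested probe sets moved from 0.10 to -0.06 between these scalings, so a change in either direction is relative to that shift. With the spread taken from the groups that kept replicates, single drought arrays set against the 3 irrigated ones gave 723 calls for array 1, 6846 for array 2 and 8161 for array 3. Leaving out drought array 2 or 3 lowered the count to 3480 or 2986, and leaving out irrigated array 2 lowered it to 4489.

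Few of the changes were large. Among the 7099, 213 were higher and 418 lower by at least 2 on the log2 scale, and the median size was 1.1. Without the array labelled drought 1 the numbers were 531 and 1171. Calls were most frequent among bright probe sets: of the brightest 9177 probe sets 21.3% were higher and 13.1% lower, and of the dimmest 9177 tested 2.4% and 2.2%. When the array labelled drought 1 was left out the shares were 26.4% and 24.9%, and 4.4% and 4.3%. In 11987 probe sets (32.7%) the 3 drought arrays did not overlap the 3 irrigated arrays, and 3473 of these were called higher (9.46% of those tested) and 2413 lower (6.57%). Overlap was judged there on the centred log2 scale of the fit. A statement below that a gene's groups did not overlap holds on that scale and for the deposited signals, unless the scale is named.

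At the median, the array labelled drought 1 lay partway between the irrigated arrays and the mean of drought arrays 2 and 3. Among the 11407 probe sets called without it, it stood a median of 26.2% of the way from the irrigated mean to the mean of drought arrays 2 and 3 (quartiles 2.6% and 50.4%). It lay past all 3 irrigated arrays in the same direction at 60.5% of them and in the opposite direction at 12.3%. This is a description only, because the irrigated arrays enter both sides and probe sets at which the parents differ were not left out. The part of the C306-like values in this position was not tested.

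LEA proteins and dehydrins were the gene list with the highest median in WL711. Of the 4 tested genes, 2 rose and 0 fell, beside 10.3% and 9.01% of all probe sets, and the list median was 1.23 against 0.10 over all probe sets. In each list a gene was read at its brightest probe set. The shares of all probe sets, here and below, are not matched for brightness. Without the array labelled drought 1 the counts were the same, with a median of 1.39 against 0.12 over all, and beside 15.1% and 16% of all probe sets. The fit on 6 arrays called none of the 4, beside 1.24% and 0.708% of all probe sets.

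LEA1, a late embryogenesis abundant protein, gave signals of 7.9, 39.1 and 18 under irrigation and 25.9, 324 and 433 under drought. Arrays 2 and 3 were far above every irrigated array, and the array labelled drought 1 lay within the irrigated range. The log2 difference was 2.44 ± 0.70 (SE, 3 arrays a group; limma, adjusted p = 0.0156) and 3.47 without that array (adjusted p = 0.000109). Leaving out irrigated array 1 or 3 or drought array 2 or 3 ended the call (adjusted p 0.0505 to 0.13).

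Rab15, a dehydrin induced by abscisic acid, read 13.6, 7.9 and 43.8 under irrigation and 48.6, 75.5 and 132 under drought, and the groups did not overlap. Its difference was 1.51 ± 0.46 (adjusted p = 0.0235), and 1.75 without the array labelled drought 1. The call ended when irrigated array 1 or 2 or drought array 2 or 3 was left out (adjusted p 0.0611 to 0.149) and when arrays were centred over all probe sets (adjusted p = 0.0523). A further probe set of Rab15 differed by 0.31 and was not called.

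The other two members did not pass the test. COR410, a dehydrin of cold and drought stress, read 31.5, 27.1 and 21.2 under irrigation and 49.4, 85.4 and 56.5 under drought, a difference of 0.94 ± 0.42 (adjusted p = 0.115). Its groups did not overlap, and all 6 signals were low. EM, the LEA protein first known from wheat embryos, differed by 0.46 ± 0.51 (adjusted p = 0.575), with overlapping groups.

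Both fructan exohydrolase genes rose. They belong to a list of starch, fructan and sucrose genes of which 2 of the 3 tested rose and 0 fell, with a median of 0.86, beside 10.3% and 9.01% of all probe sets. With drought arrays 2 and 3 alone, 2 rose and 1 fell, beside 15.1% and 16%, with a median of 1.03. For 6-FEH, which cleaves fructan chains linked through carbon 6, the signals were 318, 306.5 and 234 under irrigation and 358, 792 and 925 under drought. Every drought array was above every irrigated one, with the array labelled drought 1 nearest to them. The difference was 1.19 ± 0.25 (adjusted p = 0.00217), and 1.55 without that array. Of its 3 probe sets 1 was called, and the lowest of the others differed by -0.26.

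For 1-FEH the signals were far brighter, at 7704, 7542 and 8469 under irrigation and 10259, 17339 and 14753 under drought. The groups did not overlap, and the difference was 0.86 ± 0.22 (adjusted p = 0.00724), or 1.03 without the array labelled drought 1. The call ended without drought array 2 (adjusted p = 0.0585). AGP-S (ADP-glucose pyrophosphorylase, small subunit), an early step of starch synthesis, read 3476, 4722 and 3678 under irrigation and 4355, 2360 and 2118 under drought. Arrays 2 and 3 were below and the array labelled drought 1 inside the irrigated range, so the difference was -0.43 ± 0.23 (adjusted p = 0.197) with it and -0.80 without it (adjusted p = 0.00248).

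Photosynthesis transcripts stayed bright under drought. Of 7 tested genes, read at their brightest probe set, 0 rose and 1 fell, with a median of -0.29, beside 10.3% and 9.01% of all probe sets. The counts were the same without the array labelled drought 1, with a median of -0.54, beside 15.1% and 16%. Under quantile normalization 3 fell. FBP, fructose-1,6-bisphosphatase, read 12211, 12131 and 11823 under irrigation and 10233, 4787 and 5096 under drought. In deposited signal the array labelled drought 1 was below the irrigated arrays, but it was within their range on the centred scale of the fit, where the groups overlapped. The difference was -0.88 ± 0.24 (adjusted p = 0.0137), or -1.27 without the array labelled drought 1. Without drought array 2 or 3 the call ended (adjusted p 0.103 to 0.116).

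PsbO and PsbP encode proteins of the oxygen-evolving complex of photosystem II. PsbO read 38459, 43668 and 32073 under irrigation and 40102, 21732 and 22535 under drought, so the array labelled drought 1 lay among the irrigated arrays. Its difference was -0.43 ± 0.30 (adjusted p = 0.331), and -0.76 without that array (adjusted p = 0.0533). PsbP differed by -0.29 at its bright probe set, which was not called. A dimmer PsbP probe set, at 9306, 11947 and 9917 under irrigation and 7621, 1865 and 1306 under drought, differed by -1.9 ± 0.41 (adjusted p = 0.00224), or -2.70 without that array.

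PRK, the phosphoribulokinase of the Calvin cycle, did not pass the test, at -0.07 ± 0.22 (adjusted p = 0.853). Trx-M, a chloroplast thioredoxin, read 38383, 40371 and 35721 under irrigation and 44647, 23813 and 23545 under drought, a difference of -0.33 (adjusted p = 0.462), or -0.67 without the array labelled drought 1 (adjusted p = 0.0702). For both the array labelled drought 1 was the highest of the 6 arrays.

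The chloroplast gene rbcl, which encodes the large subunit of Rubisco, was read by 17 tested probe sets whose differences ran from -0.19 to 1.97. Of these 3 were called higher and 0 lower, and without the array labelled drought 1, 7 and 0. Its brightest probe set read 56209, 61505 and 42235 under irrigation and 55706, 65015 and 85327 under drought, with overlapping groups and a difference of 0.41 ± 0.33 (adjusted p = 0.408). The largest rise was at a dim probe set, with 65.3, 2.3 and 6.8 under irrigation against 45.0, 188 and 129 under drought. That call was lost without irrigated array 2 or 3 or drought array 2 or 3 (adjusted p 0.128 to 0.168) and under centring over all probe sets (adjusted p = 0.0581).

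The 3 defence genes had the list median farthest from 0, at -1.98. All 3 passed the test, 1 higher and 2 lower, beside 10.3% and 9.01% of all probe sets. The counts were the same without the array labelled drought 1, beside 15.1% and 16%. PR5, a thaumatin-like pathogenesis-related protein, fell from 1423, 1636 and 1523 under irrigation to 172, 324 and 275 under drought. Here the array labelled drought 1 was the lowest of all 6, and the groups lay far apart. Irrigated C306 arrays read 229, 209 and 398, and whether the level of the array labelled drought 1 followed drought was not tested. The difference was -2.48 ± 0.37 (adjusted p = 9.68e-05), or -2.28 without that array, and it was the 1 list member that the fit on 6 arrays also called.

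LTP3, a lipid transfer protein, fell from 9145, 9556 and 9704 to 4655, 1690 and 1534, and the groups did not overlap. Its difference was -1.98 ± 0.29 (adjusted p = 6.26e-05), or -2.53 without the array labelled drought 1. A second, dimmer LTP3 probe set differed by -0.19 and was not called. XIP-I, a xylanase inhibitor, rose from 296, 309 and 307 to 3177, 718 and 726. The groups did not overlap and the array labelled drought 1 was the highest, so the difference was 1.97 ± 0.41 (adjusted p = 0.00189) with it and 1.22 without it (adjusted p = 0.00338). Both XIP-I probe sets were called higher.

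Among 4 redox and detoxification genes, 1 rose and 0 fell, with a median of -0.07, beside 10.3% and 9.01% of all probe sets. Drought arrays 2 and 3 alone gave the same counts, beside 15.1% and 16%, with a median of -0.04. GSTZ1, a zeta class glutathione transferase, read 3310, 3517 and 4262 under irrigation and 5379, 6916 and 5751 under drought, with no overlap. Its difference was 0.76 ± 0.20 (adjusted p = 0.0104), or 0.79 without that array, and the call ended without drought array 2 (adjusted p = 0.0608) and with arrays centred over all probe sets (adjusted p = 0.0789). A second GSTZ1 probe set rose by 1.07, and another differed by 0.16. CAT1, a catalase that removes hydrogen peroxide, was bright and showed no call, at -0.09 ± 0.25 (adjusted p = 0.841).

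Of 6 translation genes 0 rose and 2 fell, with a median of -0.07, beside 10.3% and 9.01% of all probe sets. With the array labelled drought 1 left out, 0 rose and 3 fell, beside 15.1% and 16%. RPL9, a protein of the large ribosomal subunit, fell from 6167, 6772 and 5414 to 4565, 1966 and 1773. The difference was -1.22 ± 0.30 (adjusted p = 0.00674), or -1.69 without the array labelled drought 1, and the call ended without drought array 2 or 3 (adjusted p 0.057 to 0.0692). The initiation factor subunit eIF-2-beta fell from 3082, 2988 and 2503 to 2204, 794 and 658, by -1.37 ± 0.33 (adjusted p = 0.0049), or -1.94 without the array labelled drought 1, and the call ended without drought array 3 (adjusted p = 0.0589). In both genes the array labelled drought 1 was the drought array closest to the irrigated ones. The groups of RPL9 did not overlap; those of eIF-2-beta were apart in deposited signal but overlapped on the centred scale, where that array lay within the irrigated range. The cap-binding factor eIF4E-1 was called only without that array, at -0.52 (adjusted p = 0.0321) against -0.32 with it.

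FKBP70, an immunophilin that acts as a co-chaperone, was the 1 tested chaperone. Its signals were 14810, 15919 and 13717 under irrigation and 16414, 4985 and 4506 under drought. The array labelled drought 1 was the highest of the 6 and the other two drought arrays the lowest. The difference was -0.99 ± 0.30 (adjusted p = 0.0217) and -1.63 without the array labelled drought 1 (adjusted p = 3.62e-08). The call ended without irrigated array 1 or 2 or drought array 2 or 3 (adjusted p 0.0601 to 0.198).

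**Figure D2:**
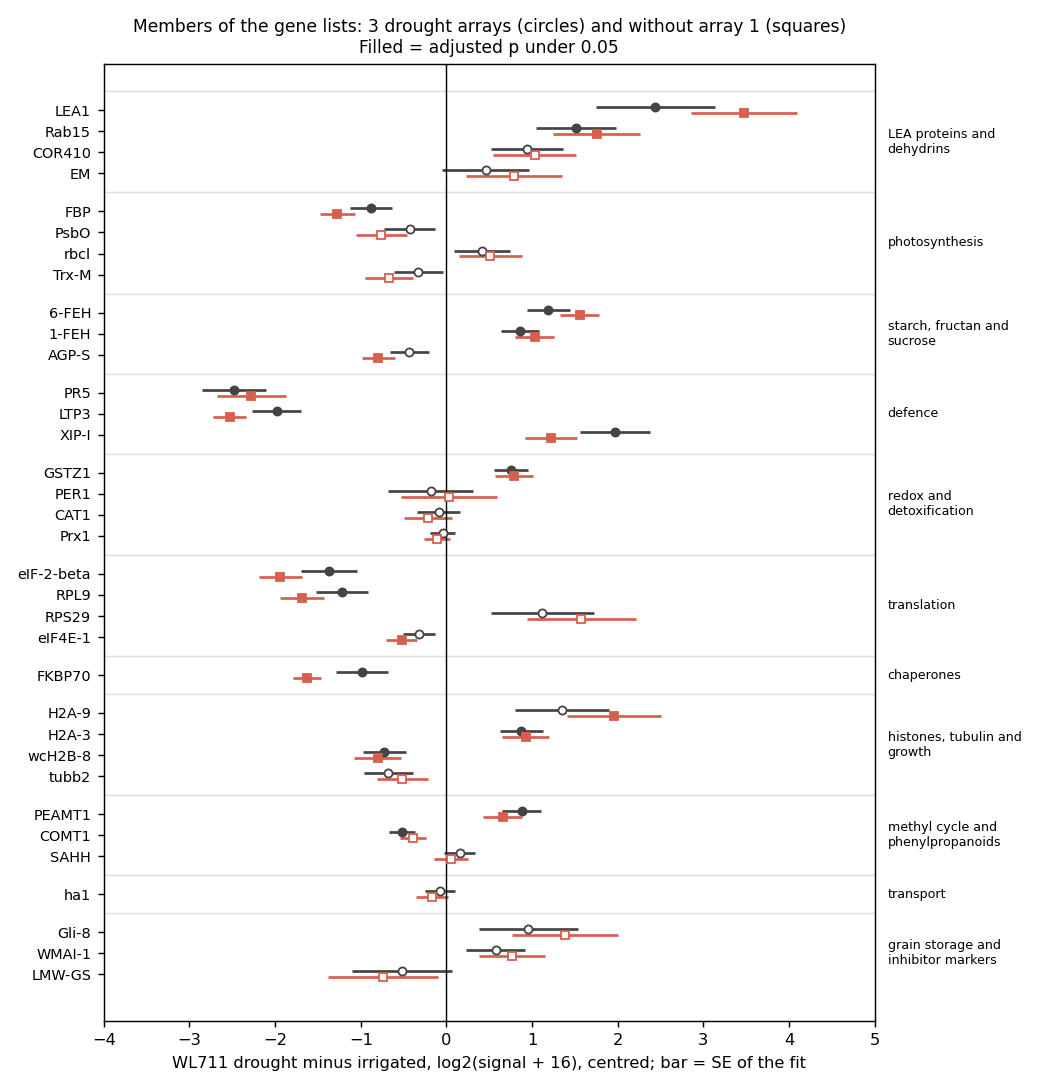
Log2 difference between drought and irrigation (horizontal axis) for members of the gene lists in WL711, with all 3 drought arrays (circles) and without the array labelled drought 1 (squares); bars are standard errors of the fit and filled symbols have an adjusted p under 0.05. LEA1, FBP, AGP-S, LTP3, RPL9, eIF-2-beta and FKBP70 lie farther from 0 without that array (LEA1 at 3.47 against 2.44), XIP-I nearer to it (1.22 against 1.97).

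Of 11 histone and tubulin genes, 1 rose and 1 fell (9.1% each), with a median of -0.39, beside 10.3% and 9.01% of all probe sets. On drought arrays 2 and 3 alone, 2 rose and 3 fell, beside 15.1% and 16%. Without centring of the arrays 5 fell, and under quantile normalization 4. H2A-3, a core histone of the nucleosome, read 600, 581 and 691 under irrigation and 973, 1182 and 1191 under drought with no overlap, by 0.87 ± 0.25 (adjusted p = 0.0156), or 0.93 without that array. That call ended without irrigated array 2 or drought array 2 or 3 (adjusted p 0.0534 to 0.0676) and with arrays centred over all probe sets (adjusted p = 0.0788). A further probe set of H2A-3 differed by -0.70 and was not called. For wcH2B-8, another core histone, the brightest probe set fell, at -0.72 ± 0.25 (adjusted p = 0.0466) and -0.80 without the array labelled drought 1, and leaving out any array but the one labelled drought 1 ended the call (adjusted p 0.0655 to 0.245). The 6 probe sets of wcH2B-8 ran from -1.29 to 1.18, with 3 called lower and 0 higher.

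Of 3 genes of methyl transfer and phenylpropanoids, 1 rose and 1 fell, with a median of 0.16, beside 10.3% and 9.01% of all probe sets. When the array labelled drought 1 was left out, 1 rose and 0 fell, beside 15.1% and 16%, with a median of 0.06. PEAMT1, which methylates phosphoethanolamine on the way to choline and glycine betaine, read 10480, 11186 and 10965 under irrigation and 24723, 17046 and 16934 under drought. All drought arrays were above all irrigated ones, the array labelled drought 1 most of all. The difference was 0.88 ± 0.23 (adjusted p = 0.00833), or 0.66 without it (adjusted p = 0.0323), and it was not called with arrays centred over all probe sets (adjusted p = 0.06). COMT1, a methyltransferase of lignin synthesis, read 9065, 9023 and 8988 against 4765, 7309 and 6370, by -0.52 ± 0.15 (adjusted p = 0.0193), or -0.39 without the array labelled drought 1 (adjusted p = 0.0598). Its call ended without irrigated array 1 or 2 or drought array 1 or 3 (adjusted p 0.0566 to 0.0669). The plasma membrane proton pump ha1, the 1 tested transport gene, did not pass the test at its brightest probe set, at -0.08 ± 0.17 (adjusted p = 0.798). The 3 tested probe sets of ha1 ran from -0.20 to 0.62. Of these, 1 was called higher and 0 lower, both with and without the array labelled drought 1.

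A further 25 tested genes carry a descriptive name and stand in no list. Of these 4 rose and 4 fell, with a median of 0.05, beside 10.3% and 9.01% of all probe sets. With drought arrays 2 and 3 alone, 2 rose and 6 fell, beside 15.1% and 16%. They are named here after their values were seen. Pgk-1, a phosphoglycerate kinase, fell from 31104, 34070 and 29346 to 27263, 7126 and 7047, by -1.45 ± 0.41 (adjusted p = 0.0154), or -2.14 without the array labelled drought 1. NCBP, a cap-binding protein, fell from 1986, 2291 and 2074 to 1827, 784 and 831, by -0.93 ± 0.28 (adjusted p = 0.0236), or -1.36 without that array. In both the array labelled drought 1 was below the irrigated arrays in deposited signal and within their range on the centred scale, so the groups overlapped there. Both calls ended without irrigated array 2 or drought array 2 or 3, and that of NCBP also without irrigated array 1 (adjusted p up to 0.163).

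TEF1 differed by -0.70 and -0.61 at its 2 probe sets, both called, and Hmgb3, a chromatin protein with a high mobility group box, by -0.67 at its brightest; without the array labelled drought 1 the brightest probe sets differed by -0.88 and -0.91. Both lost the call without drought array 2 or 3, and Hmgb3 also without irrigated array 1 or 2 (adjusted p up to 0.182). PCS1, phytochelatin synthase, which makes metal-binding peptides, rose from 137, 171 and 189 to 327, 403 and 364. Its difference of 1.13 ± 0.29 (adjusted p = 0.00849), 1.16 without the array labelled drought 1, was called in every fit that left out 1 WL711 array. The pollen development gene raftin1b (1.52, at signals of 11.9 to 102), the iron siderophore enzyme DMAS1 (0.58) and the avenin-like storage protein ALP (0.49) were also called higher. Each of these 3 lost its call without the array labelled drought 1, without at least 4 other single arrays, and with arrays centred over all probe sets (adjusted p up to 0.29).

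Over all 632 named genes tested, 84 (13.3%) were higher and 103 (16.3%) lower, beside 10.3% and 9.01% of all probe sets. With arrays centred over all probe sets the numbers of named genes were 48 and 115. They were 106 and 154 without the array labelled drought 1, beside 15.1% and 16%. Most of them, 561, are known only by a locus number, and no function is stated here for those. The fit on the 6 arrays called 12 higher and 13 lower.

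Among locus-number genes, LOC100037528 gave the largest fall of any named gene. Its signals were 3016, 2754 and 2972 under irrigation and 52.3, 31.2 and 6.5 under drought, so all 3 drought arrays, the one labelled drought 1 included, were far below the irrigated arrays. The difference was -6.08 ± 0.45 (adjusted p = 2.51e-08), and -6.48 without that array. LOC543287 was low on all 3 drought arrays as well, at 444, 406 and 601 against 31.4, 39.5 and 37.9. Its difference was -3.19 ± 0.64 (adjusted p = 0.00137), or -3.16 without the array labelled drought 1. Irrigated C306 arrays read 5.7 to 10.0 for LOC100037528 and 5.0 to 18.2 for LOC543287. Whether the low values of the array labelled drought 1 followed drought was not tested.

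In other genes the array labelled drought 1 lay between the irrigated arrays and drought arrays 2 and 3. LOC543104 read 4074, 4536 and 4876 under irrigation and 643, 103 and 103 under drought, by -4.36 ± 0.50 (adjusted p = 3.82e-06), or -5.23 without the array labelled drought 1. LOC542871 read 14238, 16446 and 13410 against 4644, 1084 and 909, and LOC543420 read 11625, 13508 and 12220 against 5111, 1032 and 993. Their differences were -3.07 ± 0.40 and -2.77 ± 0.39 (adjusted p = 1.6e-05 and 5.19e-05), and -3.85 and -3.58 without that array. LOC542862, LOC780678 and LOC542773 followed the same order at -2.42, -2.39 and -2.60, and at -3.34, -3.04 and -3.08 without it. In each of these genes the groups did not overlap. In each, every irrigated C306 array was also below every irrigated WL711 array. Irrigated C306 read 3338 to 4107 for LOC542871, 2172 to 2515 for LOC543420 and 281 to 486 for LOC542773. Whether the in-between level of the array labelled drought 1 followed drought was not tested. A probe set of LOC542862 from another transcript cluster differed by 0.60 and was not called.

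LOC542989 was the clearest case of a drought array without the change. It read 905, 799 and 796 under irrigation and 780, 3.2 and 3.0 under drought. The array labelled drought 1 was just below the irrigated arrays in deposited signal and within their range on the centred scale, and arrays 2 and 3 were at the dim end of the scale. The difference was -3.62 ± 0.96 (adjusted p = 0.00971), -5.46 without that array, and the call ended without drought array 2 or 3 (adjusted p 0.09 to 0.0947). Its other two probe sets were called lower as well, at -1.86 and -2.39.

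**Figure D3:**
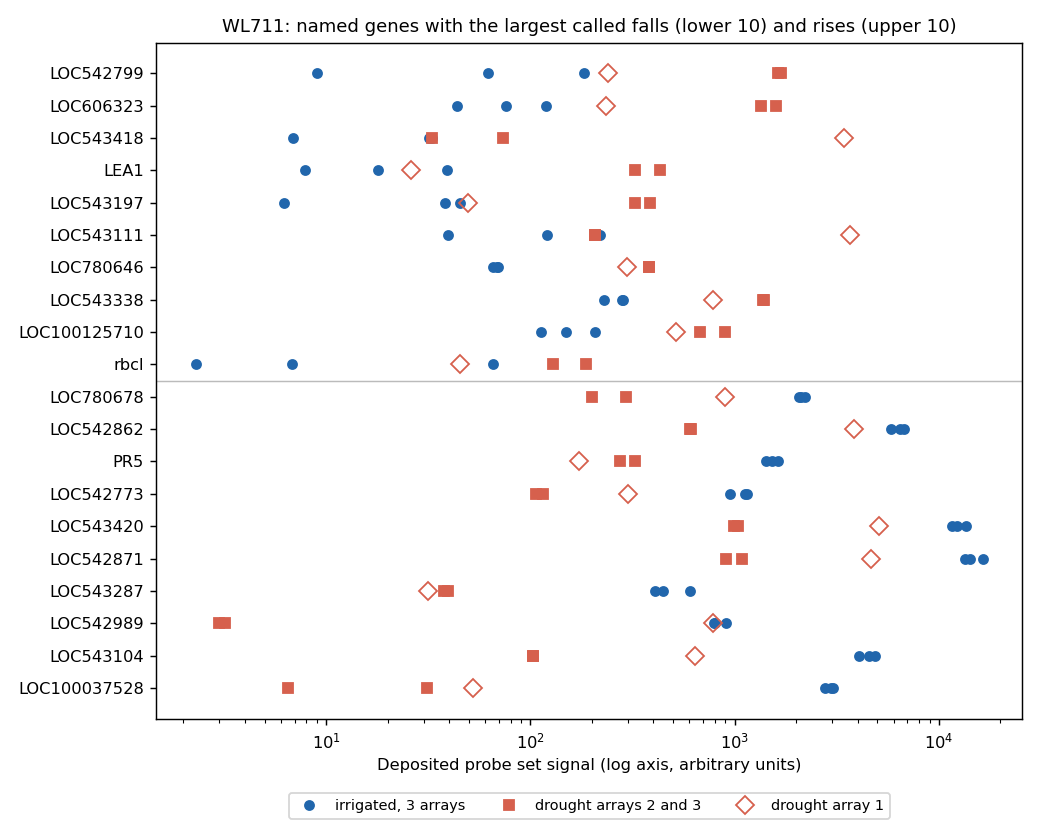
Deposited signal (horizontal log axis, arbitrary units) of the 20 named genes with the largest called falls and rises in WL711, 1 probe set per gene, on the 3 irrigated arrays (circles), drought arrays 2 and 3 (squares) and the array labelled drought 1 (open diamonds). For LOC542989 (780) and LEA1 (25.9) the diamond sits with the irrigated arrays, for LOC543418 (3412) and LOC543111 (3664) it lies far from all other WL711 arrays, and for LOC100037528 (52.3) and PR5 (172) it lies with the drought arrays. Irrigated C306 arrays, not drawn, read 5.7 to 10.0 for LOC100037528 and 209 to 398 for PR5.

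The largest rises among locus-number genes were in LOC542799 and LOC606323. LOC542799 read 184, 62.1 and 9.0 under irrigation and 239, 1627 and 1689 under drought, by 3.67 ± 0.61 (adjusted p = 0.000263). LOC606323 read 76.1, 43.5 and 119 against 233, 1343 and 1591, by 3.23 ± 0.56 (adjusted p = 0.000359). In both, the array labelled drought 1 stood above the irrigated range, and without it the differences were 4.53 and 4.04. Irrigated C306 arrays read 256 to 411 for LOC542799 and 369 to 592 for LOC606323. Whether the levels of the array labelled drought 1 followed drought was not tested.

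LOC780646, LOC543338 and LOC100125710 were higher on all 3 drought arrays. In irrigated C306 they read 418 to 577, 266 to 447 and 223 to 871. LOC780646 moved from 65.6, 69.4 and 68.3 to 298, 380 and 381, by 2.19 ± 0.25 (adjusted p = 3.11e-06), and its value was 2.26 without the array labelled drought 1. LOC543338 and LOC100125710 both rose by 2.11, with no overlap between groups, and by 2.34 and 2.25 without that array. LOC543197 rose by 2.37 ± 0.52 (adjusted p = 0.00285), with signals of 6.2 to 45.1 against 49.6, 325 and 386, and by 3.16 without that array. Its irrigated C306 signals were 714 to 925. Whether the levels of the array labelled drought 1 in these genes followed drought was not tested. On the 6 arrays alone, LOC542799, LOC543197, LOC542989, LOC543420, LOC542862 and LOC780678 were not called.

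LOC543418 and LOC543111, described above, were also among the 10 largest rises, at 2.76 ± 0.85 (adjusted p = 0.0238) and 2.29 ± 0.65 (adjusted p = 0.0153). Both rest on the array labelled drought 1. Without it they were 0.82 (adjusted p = 0.0801) and 0.89 (adjusted p = 0.0577), and leaving out irrigated array 2, or for LOC543418 irrigated array 3, ended the calls too, with adjusted p up to 0.106. A second probe set of LOC543418 was called lower, at -1.0, and the other two of LOC543111 were not called.

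The largest rises among probe sets with no gene name exceeded those of the named genes. Ta.13337.1.S1_at read 181, 134 and 158 under irrigation and 916, 28689 and 34136 under drought, by 5.87 ± 0.78 (adjusted p = 2.46e-05). Ta.9389.1.S1_at read 68.7, 74.9 and 33.4 against 393, 10735 and 12516, by 5.77 ± 0.80 (adjusted p = 3.94e-05). On both the array labelled drought 1 was above the irrigated arrays and far below the remaining drought arrays, and the values without it were 7.52 and 7.34. Irrigated C306 arrays read 3713 to 3833 on Ta.13337.1.S1_at and 70.1 to 80.5 on Ta.9389.1.S1_at. Whether the levels of the array labelled drought 1 on these probe sets followed drought was not tested. The largest falls among probe sets with no gene name, smaller than that of LOC100037528, were in Ta.4147.1.S1_at, at 2253, 2630 and 2180 against 271, 30.3 and 47.6 (-4.59 ± 0.60, adjusted p = 1.94e-05, and -5.43 without the array labelled drought 1), and TaAffx.105530.1.S1_at, at 3177, 3898 and 4459 against 3.9, 456 and 361 (-4.59 ± 0.71, adjusted p = 0.000139). In the latter the array labelled drought 1 was the lowest, and the value without it was -3.17. Irrigated C306 arrays read 5.8 to 46.2 on Ta.4147.1.S1_at and 3.0 to 44.8 on TaAffx.105530.1.S1_at. Whether the low values of the array labelled drought 1 on these probe sets followed drought was not tested.

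Probe sets that answered drought in every other material gave a reference that used no WL711 array. In C306 and in both bulks, 1041 probe sets (2.84%) were called higher in each and 872 (2.38%) lower in each. In WL711, 669 of the 1041 (64.3%) were called higher and 13 lower, and 526 of the 872 (60.3%) were called lower and 9 higher, against 10.3% and 9.01% of all probe sets. Without the array labelled drought 1 the shares called the same way were 80.3% and 87.4%.

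Those sets also placed the single arrays. Relative to the mean of the irrigated WL711 arrays, the median of the 1041 was 0.35 on the array labelled drought 1, 1.16 on array 2 and 1.24 on array 3. The median of the 872 was -0.03, -1.42 and -1.46. The irrigated arrays ran from -0.10 to 0.08 over both sets. On the set that fell elsewhere, the array labelled drought 1 thus lay within the irrigated range, and on the set that rose it lay above it.

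Set beside the other materials, the WL711 medians depended on that array. Without the array labelled drought 1 the WL711 medians were 1.2 and -1.45, beside 1.13 and -1.08 in C306, 1.47 and -1.23 in the susceptible bulk and 1.19 and -1.05 in the tolerant bulk. With it they were 0.90 and -0.97. Restricting the sets to probe sets on which the irrigated parents differed by less than 0.5 left 526 and 417, with medians of 0.30 and 0.09 on the array labelled drought 1. There the WL711 medians without that array were 1.12 and -1.13. They were 1.05 and -1.08 in C306, 1.47 and -1.12 in the susceptible bulk and 1.15 and -0.94 in the tolerant bulk. With all 3 drought arrays 64.8% and 43.4% were called the same way in WL711, against 10.3% and 9.01% of all probe sets. Without that array the shares were 83.5% and 85.9%, against 15.1% and 16%.

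**Figure D4:**
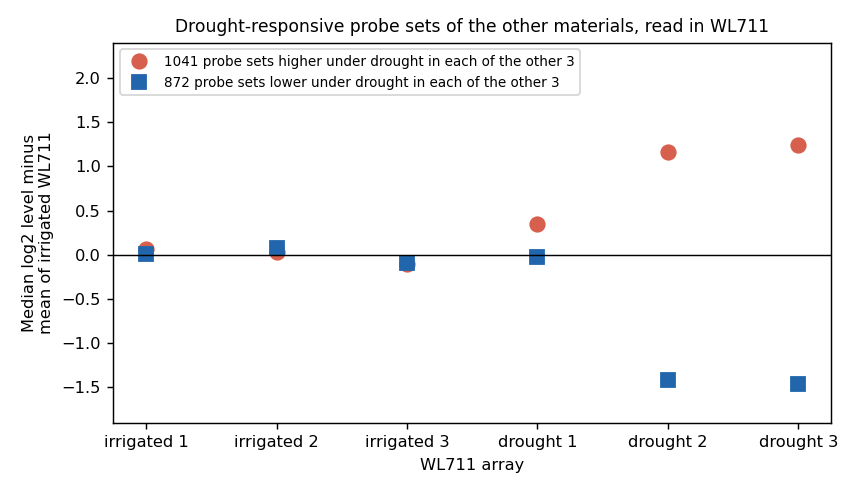
Median log2 level relative to the mean of the irrigated WL711 arrays (vertical axis) on each WL711 array (horizontal axis), for the 1041 probe sets higher and the 872 lower under drought in each of the other 3 materials. Drought arrays 2 and 3 sit at 1.16 and 1.24 and at -1.42 and -1.46, while the array labelled drought 1 sits at 0.35 and -0.03.

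Whether WL711 responded differently from the tolerant parent was tested as the difference between the responses. Against C306, 2841 probe sets (7.74%) differed, 1708 (4.65%) with a higher and 1133 (3.09%) with a lower response in WL711. Without the array labelled drought 1 the count was 4783, and without the pair of C306 drought arrays with the highest spike-in signal, 1 and 3, it was 1314. The 10 named genes below kept their call without the array labelled drought 1, with differences of 2.89 to 6.12 for the 5 higher and -7.36 to -4.63 for the 5 lower responses.

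Of the 5 named genes with lower responses, 4 had fallen in WL711 while their C306 response was positive. LOC542773 fell in WL711 from 1148, 944 and 1124 to 302, 107 and 115. In C306 it read 486, 281 and 332 under irrigation and 13255, 3658 and 8002 under drought. The responses were -2.60 and 4.28, a difference of -6.88 ± 0.60 (adjusted p = 2.13e-08). In the bulks the same gene responded by -0.48 (susceptible) and -5.06 (tolerant).

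LOC542774 responded by -1.99 in WL711 and 3.64 in C306, LOC780687 by -1.18 and 3.78, and LOC780599 by -1.74 and 2.84. Their differences were -5.63 ± 0.50, -4.96 ± 0.30 and -4.58 ± 0.43 (adjusted p = 2.3e-08, 2.52e-11 and 5.95e-08). For each of them every WL711 drought array was below every C306 drought array, with LOC780687 at 404 to 571 in WL711 and 3302 to 5444 in C306. The remaining gene, LOC100037528, differed by -6.15 ± 0.63 (adjusted p = 3.07e-07), but its C306 signals were 5.7 to 10.0 under irrigation and 5.8 to 13.6 under drought, so a fall in C306 could not have been measured.

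Of the higher responses, LOC543197 and LOC606323 rose in WL711, and their C306 responses were negative. LOC543197 read 714, 925 and 782 in irrigated C306 and 345, 59.9 and 435 under drought, a response of -1.84 against 2.37 in WL711. The difference was 4.21 ± 0.74 (adjusted p = 0.00058). LOC606323 responded by 3.23 in WL711, -0.48 in C306, 6.83 in the susceptible bulk and 5.47 in the tolerant bulk, and the difference of WL711 from C306 was 3.71 ± 0.78 (adjusted p = 0.0035). LOC543127 (3.16 ± 0.64, adjusted p = 0.00226) and the histone gene wcH2B-6 (2.83 ± 0.80, adjusted p = 0.0289) had responses of -3.49 and -3.13 in C306 and of -0.33 and -0.31 in WL711, neither of the latter called.

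An rbcl probe set gave the largest higher response, 4.58 ± 1.35 (adjusted p = 0.0364). It read 1078, 1357 and 374 in irrigated WL711 and 298, 6508 and 10889 under drought, against 1951, 9821 and 7253 and then 300, 4144 and 333 in C306. The spread was wide in every one of these groups, and leaving out any of 8 single arrays ended the call (adjusted p 0.0531 to 0.11): WL711 irrigated 1 or 3, WL711 drought 2 or 3, C306 irrigated 2 or 3, and C306 drought 1 or 3. For wcH2B-6, 6 of 12 single arrays did (WL711 irrigated 2 or 3, WL711 drought 2, C306 irrigated 1 or 3, C306 drought 1; adjusted p 0.0528 to 0.0982). Without C306 drought arrays 1 and 3, rbcl (adjusted p = 0.554), LOC543127 (0.103) and wcH2B-6 (0.239) were not called.

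Against the mean response of the other 3 materials, 1742 probe sets (4.75%) differed, 801 (2.18%) higher and 941 (2.56%) lower. With arrays centred over all probe sets the split was 393 and 1000, and without the array labelled drought 1 the total was 3667. Leaving out irrigated array 1, 2 or 3 gave 1147, 1008 or 1137.

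LOC780599 had a lower response in both contrasts. It fell in WL711 from 361, 592 and 839 to 154, 232 and 95.2 and responded by 2.84 in C306, 1.39 in the susceptible bulk and 1.32 in the tolerant bulk. WL711 differed from their mean by -3.59 ± 0.35 (adjusted p = 5.13e-07). LOC543479 fell from 211, 130 and 177 to 51.4, 39.5 and 6.7 in WL711 and responded by 0.90 to 3.36 elsewhere, a difference of -4.23 ± 0.78 (adjusted p = 0.00142); its other probe set differed by 0.02 in WL711.

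LOC542871 was bright in all 4 materials with a WL711 response of -3.07. Its responses elsewhere were 0.91 in C306, 0.05 in the susceptible bulk and -0.80 in the tolerant bulk, and the difference was -3.12 ± 0.46 (adjusted p = 0.000118). LOC100037528 and LOC543287 differed by -4.18 ± 0.52 and -3.06 ± 0.74 (adjusted p = 1.24e-05 and 0.0146). Under irrigation LOC100037528 read 5.7 to 10.0 in C306, 88.7 to 209 in the susceptible bulk and 751 to 849 in the tolerant bulk. From those levels a fall as large as that in WL711 could not have been measured in C306 or the susceptible bulk. The bulks responded by -1.9 (susceptible) and -3.9 (tolerant). LOC543287 was dim in the other 3 materials, at 1.8 to 93.8 over their 18 arrays, and its call ended without irrigated array 3 (adjusted p = 0.0539) and with a pseudocount of 1 (adjusted p = 0.258).

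Of the 5 higher responses, LOC100125710 rose in WL711 by 2.11 against 1.02, -0.69 and -0.25 in C306, the susceptible and the tolerant bulk, a difference of 2.08 ± 0.39 (adjusted p = 0.00159). LOC780646 rose by 2.19 against 0.05, 0.83 and 0.81, a difference of 1.62 ± 0.28 (adjusted p = 0.00089). LOC780646 began from 65.6 to 69.4 in irrigated WL711 and from 125 to 577 in the other irrigated materials, and the drought signals of WL711 (298 to 381) lay within theirs (281 to 664). LOC543369 (2.48 ± 0.56, adjusted p = 0.00894), LOC543127 (2.06 ± 0.52, adjusted p = 0.0198) and LOC543422 (1.56 ± 0.25, adjusted p = 0.000366) had responses that were lower in the other 3 than in WL711. Within WL711, LOC543369 responded by 1.35 and LOC543127 by -0.33, neither called, and LOC543422 was called lower, at -0.67. The call of the LOC543127 difference from the other 3 ended without irrigated array 1 or 3 (adjusted p 0.0501 to 0.0738). All 10 of these named genes kept their call without the array labelled drought 1, with differences of 1.57 to 2.33 for the higher and -4.58 to -3.04 for the lower responses.

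**Figure D5:**
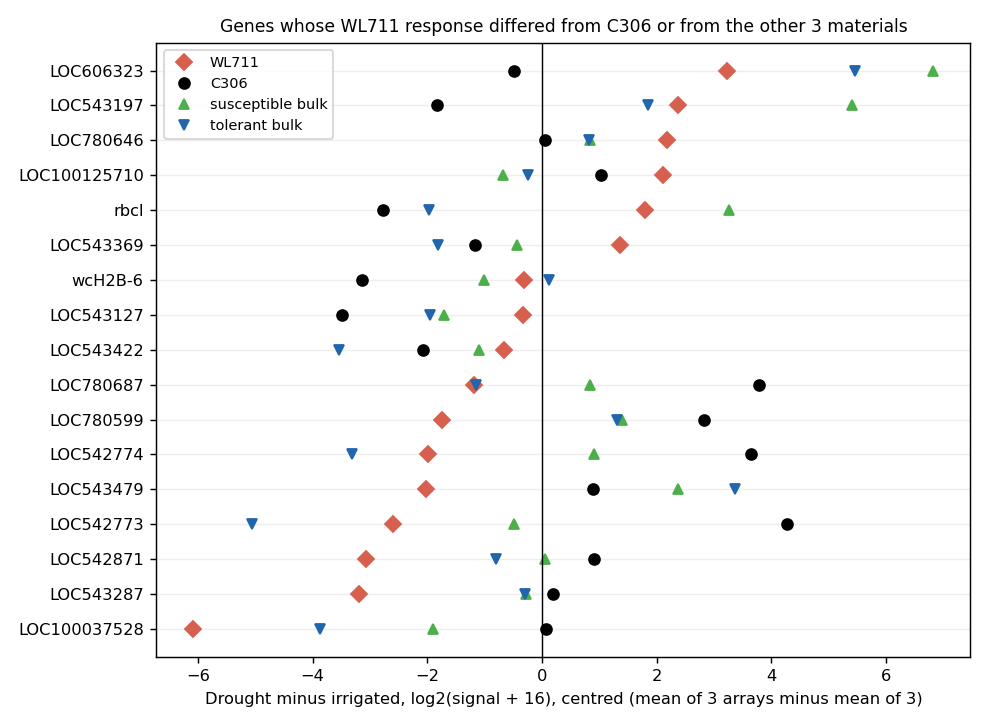
Drought minus irrigated on the log2 scale (horizontal axis; mean of 3 arrays minus mean of 3) in WL711, C306 and the susceptible and tolerant bulks for the 17 named probe sets whose WL711 response differed most from C306 or from the mean of the other 3. LOC542773 lies at -2.60 in WL711 and 4.28 in C306, and LOC100037528 at -6.08 and 0.07. The C306 signals of LOC100037528 were 5.7 to 10.0 under irrigation, too low for a fall to be measured. The bulks share neither parent's value throughout.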

How the data were processed

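Per the submitters' processing notes the arrays were processed with GCOS 1.2; the authors deposited 1 signal intensity per probe set and array, on a linear scale. The 2% trimmed mean of every array was 500.091 to 500.113. Labelled RNA was made from 8 ug total RNA, per the labels' protocols. Arrays have no read depth, and precision is set by 3 arrays a group; detection calls were not used here.

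The 111 control probe sets were removed, log2(signal + 16) taken, and the dimmest 40% by mean over the 24 arrays left out (a mean below a signal of 39), leaving 36707 of 61290. Fold changes on this scale understate the change of dim genes. The median of the probe sets kept was subtracted on each array. The 8 group means were fitted with limma 3.58.1 in R 4.3.3, with an intensity trend and Benjamini-Hochberg adjustment over all 36707; a call is an adjusted p under 0.05. The scripts were tested on simulated data. Fitting all groups lends the other groups' spread to WL711 (16 residual degrees of freedom, against 4 on the 6 WL711 arrays). With 3 against 3 arrays an exact permutation test of 1 value could not go below 0.1, so none was run.

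Names came from the platform annotation (1273 probe sets, 771 genes, 770 of them found in the gene table) without sequence or coordinates. Per list a gene was read at its brightest probe set. Named genes are the 10 largest called rises and 10 falls, 5 and 5 without the array labelled drought 1, up to 4 members per list, 5 and 5 per difference between responses and 2 and 2 unnamed probe sets; genes in no list were added. Members and lists were chosen with earlier results of these data known. Lists for abscisic acid signalling and nitrogen held 0 named genes. Alternatives were pseudocount, filter, scaling, array weights, trend, replicate block, fewer groups and each array left out.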

Additional observations from a re-analysis of the deposited data

Results flagged for a closer look

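The entries below are differences in drought response between WL711 and other materials that passed the test of the difference itself (limma, adjusted p under 0.05), which is why they are listed; no explanation was tested. The response of WL711 differed from that of C306 at 2841 probe sets and from the mean of the other 3 materials at 1742.

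Against C306, the named genes with a higher response in WL711 were an rbcl probe set (log2 difference 4.58), LOC543197 (4.21), LOC606323 (3.71), LOC543127 (3.16) and wcH2B-6 (2.83). Those with a lower response were LOC542773 (-6.88), LOC100037528 (-6.15), LOC542774 (-5.63), LOC780687 (-4.96) and LOC780599 (-4.58). LOC100037528 read 5.7 to 10.0 in irrigated C306, so a fall there could not have been measured.

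Against the mean of the other 3 materials, the higher responses were LOC543369 (2.48), LOC100125710 (2.08), LOC543127 (2.06), LOC780646 (1.62) and LOC543422 (1.56). The lower ones were LOC543479 (-4.23), LOC100037528 (-4.18), LOC780599 (-3.59), LOC542871 (-3.12) and LOC543287 (-3.06). For LOC100037528 and LOC543287 the irrigated signals of C306 and the susceptible bulk were far below those of WL711, which limits any fall there. Groups of 3 arrays are too small to be screened for single outlying arrays by the range of the group.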

How the results depend on the processing

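The count of 7099 for WL711 drought was 16969 with array weights (which gave the array labelled drought 1 a weight of 0.165), 717 on the 6 WL711 arrays and 2986 to 11407 when 1 array was left out. Chosen after seeing the data, array 1 alone gave 723, the 5 arrays without it 14126, and no centring or quantile normalization without it 11874 and 12080. The split was 1722 higher and 3254 lower with no filter on dim probe sets. For the difference from C306 (2841) the counts were 1893 with no filter, 7496 with array weights, 1683 on the 12 parental arrays, 1314 without C306 drought arrays 1 and 3, and 1971 to 4783 with 1 array left out. For the difference from the other 3 materials (1742) they were 1140 with no filter, 7921 with weights and 1008 to 3667. With a gap of 3 in place of 2, 45.9% of the 98 parental markers lay near C306 on the array labelled drought 1, and with a gap of 1, 32.4% of 451. Other planned settings left these counts within 1.5 times.

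Of 85 named results read under 1947 alternatives, 1671 kept direction and side of the threshold, 221 lost the call, 53 gained one and 2 reversed, both on the array labelled drought 1 alone (LOC542989 0.049, FKBP70 0.29). The fit on the 6 arrays ended 33 calls (adjusted p 0.0503 to 0.228), and no filter on dim probe sets ended 11 (the dim rbcl probe set, Rab15, 1-FEH, GSTZ1, H2A-3, PEAMT1, PCS1, raftin1b, DMAS1 and ALP in WL711, and LOC543127 in the difference from the other 3 materials, adjusted p = 0.0625). The causes were not tested. The replicate numbers did not pair the samples (correlations of deviations -0.091, -0.064 and -0.03); with the replicate block the counts were 7135, 2809 and 1730, and of the named calls only that of DMAS1 was lost (adjusted p = 0.054). Probe sets with a mean signal under 39 were not tested, and p-values measure only the spread between these arrays.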
